A study of Mus musculus with 6 samples.

Results

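Myoblasts become muscle fibres by recognising each other, adhering and merging their membranes, and the 10 genes described here act at those steps or in resealing the membrane: Mymk, Cdh15, Cdh2, Ncam1, Cav3, Dysf, Myof, Cd9, Cd81 and Jam3. They were taken as all probe sets whose single gene symbol in the platform annotation is one of these names, which gave 19 of the 45037 non-control probe sets and 10 of the 18194 named genes. All 10 matched by current symbol. The samples were C2C12 cells, a line of mouse myoblasts, labelled undifferentiated. They were grown for 72 h in 100 mm dishes in DMEM with 10% fetal bovine serum, 4 mM L-glutamine and 1% antibiotics. For 3 untreated samples this was the basal medium, and for 3 treated samples it was DMEM without its own pyruvate to which 50 mM sodium pyruvate was added. Only the treated medium is described as lacking the pyruvate of the stock, so the untreated cells may also have had some, and no medium matched for sodium was analysed here. RNA of each sample was read on 1 Affymetrix array of the mouse genome. Nothing in the labels tells whether replicate samples came from different cultures, and p-values therefore cover only the variation among these samples, possibly technical.

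As background, cadherins bind their like on a neighbouring cell through calcium-dependent contacts, and immunoglobulin-type receptors such as NCAM and the junctional adhesion molecules add further contacts. Myomaker, the product of Mymk, is a membrane protein that myoblasts need to fuse, and it works together with a small partner encoded by Mymx. Ferlins are calcium-binding membrane proteins of vesicle fusion and membrane resealing, caveolin-3 is the muscle caveolin, and tetraspanins organise receptors in the plane of the membrane.

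E-boxes, the CANNTG sites that myogenic transcription factors can bind, were looked up in the 250 bases before the start of each member, because Cdh15 fell with pyruvate while the tetraspanin genes Cd9 and Cd81 rose. The RefSeq promoter table (build GRCm38.p6) held 7 such stretches for 6 of the 10 members, namely Cdh15, Cd9, Cd81, Cav3, Myof and Dysf. It held none for Mymk, Cdh2, Ncam1 and Jam3. The lines below run from 5′ to 3′ in the direction of each gene, with every CANNTG in capitals. The Cdh15 stretch is chr8:122848124-122848373 on the plus strand, the Cd9 stretch chr6:125494761-125495010 on the minus strand and the Cd81 stretch chr7:143052500-143052749 on the plus strand.
Cdh15: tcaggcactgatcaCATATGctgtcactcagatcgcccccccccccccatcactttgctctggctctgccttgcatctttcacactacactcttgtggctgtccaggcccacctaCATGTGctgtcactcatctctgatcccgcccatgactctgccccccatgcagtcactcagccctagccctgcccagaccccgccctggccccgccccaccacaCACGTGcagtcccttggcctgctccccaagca
Cd9: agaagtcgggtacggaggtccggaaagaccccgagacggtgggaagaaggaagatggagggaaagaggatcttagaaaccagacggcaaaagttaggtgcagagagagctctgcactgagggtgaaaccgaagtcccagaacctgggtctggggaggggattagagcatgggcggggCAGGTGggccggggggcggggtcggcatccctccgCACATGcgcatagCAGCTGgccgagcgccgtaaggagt
Cd81: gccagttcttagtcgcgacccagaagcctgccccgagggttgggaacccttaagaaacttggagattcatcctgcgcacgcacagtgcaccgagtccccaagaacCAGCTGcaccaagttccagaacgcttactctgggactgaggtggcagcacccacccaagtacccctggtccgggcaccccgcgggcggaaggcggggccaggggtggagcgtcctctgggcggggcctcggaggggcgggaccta

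Cdh15 held 3 CANNTG matches, Cd9 held 3, Cd81 held 1 and Cav3 held 2, while Myof and both Dysf stretches held none. The version CAGCTG was present once in Cd9, Cd81 and Cav3 and not in Cdh15, and CACCTG, read on both strands, once in Cd9. Both versions are also counted as CANNTG. The letters CATTCC, searched on both strands as a core of TEAD factor sites, were in none of the 7 stretches. Among all 32851 stretches of this length, 66.2% held CANNTG, 13% CAGCTG, 17.2% CACCTG and 12.6% CATTCC. Cdh15, which fell, and Cd9 and Cd81, which rose, thus all carried CANNTG letters, as most stretches did. Myof, which also rose, carried none. These matches are letters and not measured sites.

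With pyruvate, the fusion gene Mymk fell most of the members, the cadherin genes Cdh15 and Cdh2 fell by less, and the bright transcripts of Cd9, Cd81 and Myof rose modestly. Each gene was read from the probe set with its highest mean over the 6 arrays. Values are MAS5 signals, intensities on a linear scale with no read depth behind them, and changes are pyruvate minus untreated on the scale of log2(signal + 16), which understates the change of dim probe sets. Of the 10 members, 8 passed the signal filter, a mean of about 30.3. Of these 8, 3 were lower and 4 higher at an adjusted p under 0.05 (limma, adjusted over all 22519 probe sets tested). Over all 10685 genes tested, 35.1% were called, 14.5% lower and 20.7% higher. The median change was 0.15 over the 8 members and 0.03 over all genes. By probe set, 14 of the 19 passed the filter, of which 5 were lower and 6 higher, against 15.9% lower and 16.3% higher, 32.2% in all, among the probe sets tested.

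**Figure D1:**
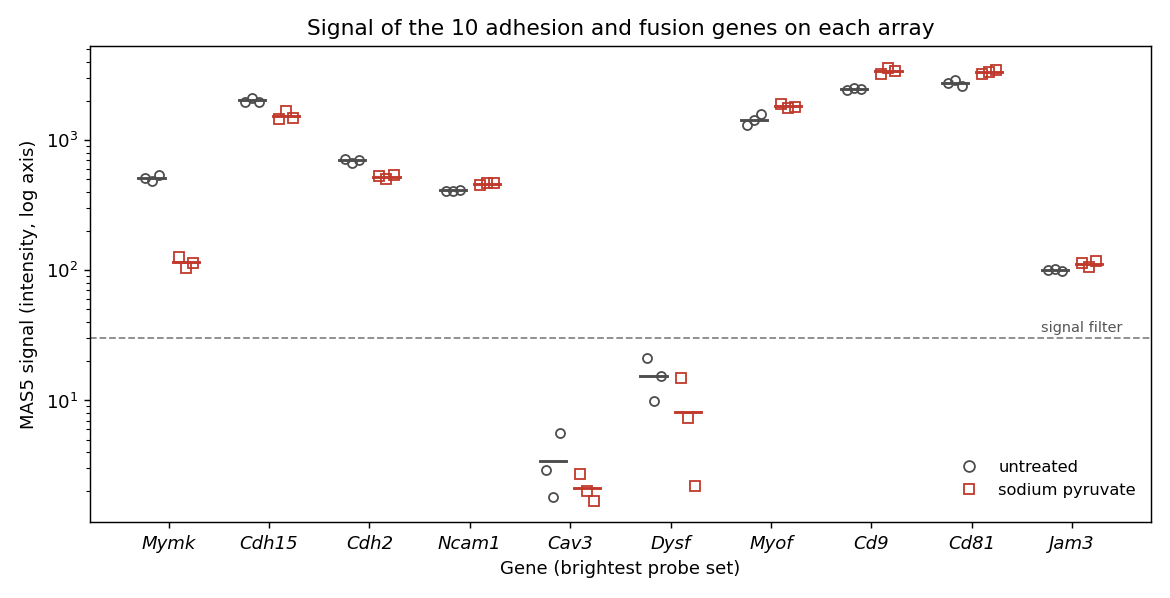
MAS5 signal (log axis) of the brightest probe set of each of the 10 genes, 1 point per array, with bars at the mean of the 3 untreated (grey circles) and 3 pyruvate arrays (red squares) and a dashed line at the signal filter of 30.3. Mymk shows the widest gap between groups, Cav3 and Dysf lie under the line on all 6 arrays, and heights of different genes are not comparable because each probe set has its own response.

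Across the arrays as a whole, the brightest transcripts were higher with pyruvate as the authors scaled them: the 864 probe sets with a mean log2 value of 11 or more had a median change of 0.23, against 0.00 for the 8655 probe sets from 7 to 9. Quantile normalization brought the former median to 0.00. Arrays of a group correlated at 0.985 to 0.991 across probe sets and arrays of different groups at 0.979 to 0.983. The labelled cell type was checked on fixed markers. All 6 myoblast markers passed the filter, of which 3 were higher and 2 lower with pyruvate. Their summed signal was 9693 to 9792 on untreated and 10489 to 11393 on pyruvate arrays. Without Chrna1, the brightest (3787 and 5281 in the group means), the sum of the other 5 was 5854 to 6007 on untreated and 5533 to 5697 on pyruvate arrays. Of 8 markers of differentiating myotubes 7 were lower with pyruvate and their sum went from 5565 to 6040 down to 648 to 833, so untreated cells carried differentiation transcripts despite their label. Markers of other cell types were dim, with sums of 113 to 167 over 4 macrophage genes, 45.0 to 87.5 over 4 endothelial genes, 24.2 to 39.4 over 3 adipocyte genes and 29.8 to 80.7 over 2 Schwann cell genes on any array. The 4 neuronal genes summed to 263 to 389, most of it from the tubulin gene Tubb3 (299 and 305 in the group means).

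Myomaker RNA was the member that differed most. Mymk (probe set 1419050_at) was at 508.7, 484.5 and 541.5 on the untreated arrays and at 127.4, 104.5 and 113.4 on the pyruvate arrays. Every pyruvate array lay far below every untreated one, and the signal stayed above the filter in both groups. The means were 512 ± 28.6 and 115 ± 11.5 (SD, n = 3 each), a ratio of 4.44 untreated over pyruvate. The log2 change was -2.01 with a standard error of 0.08 and a 95% interval of -2.19 to -1.84 (adjusted p = 3.8e-08). Of the 10685 genes tested, it had the change in place 15 from the lowest. Since these are bulk samples, fewer fusing cells and less Mymk RNA per cell cannot be told apart. The fall went along with that of the myotube markers given above, and their part in it was not tested.

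Mymx, the partner of Mymk in fusion, is not one of the 10 genes but belongs to the same step. Its signals were 189.0, 184.9 and 207.3 on untreated arrays and 37.4, 56.0 and 40.6 on pyruvate arrays, without overlap. It fell by 1.80 (standard error 0.12, adjusted p = 2.1e-06), place 18 from the lowest. Set against each other within each array, Mymk over Mymx was at 1.33 ± 0.02 on the log2 scale in untreated and 1.12 ± 0.35 in pyruvate cells (SD, n = 3). That difference of -0.21 was within the spread of the pyruvate arrays (exact permutation test, two-sided p = 0.4, and 0.51 after Benjamini-Hochberg adjustment over 9 such ratios, of which 3 between genes were chosen after their values were seen). With 3 against 3 arrays no such p can fall under 0.1.

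The genes whose centred values over the 6 arrays lay closest to those of Mymk, among 10685 genes less the members and clone-named transcripts, were Myh3, Tnni2, Tnnc1, Srl and Mest. Their root mean square differences from Mymk were 0.126, 0.126, 0.145, 0.174 and 0.177 on the log2 scale. Their changes ran from -1.73 for Mest to -2.17 for Tnnc1. Because the 6 arrays form 2 groups, this likeness mostly restates the size of the change.

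Both cadherin genes were lower by about the same amount on their brightest probe sets. M-cadherin, encoded by Cdh15, is the cadherin of myoblasts and satellite cells. Cdh15 (1418602_at) was at 1980.9, 2106.0 and 1972.1 in untreated and 1449.9, 1686.0 and 1484.1 in pyruvate cells. The highest pyruvate array was below the lowest untreated array. The means were 2020 ± 74.9 and 1540 ± 128 (SD, n = 3), and the log2 change was -0.39 (standard error 0.06, adjusted p = 0.00061). After quantile normalization it was -0.45.

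N-cadherin, encoded by Cdh2, is shared by myoblasts with neurons and other cells. Its brighter probe set, 1418815_at, read 723.3, 672.0 and 703.9 in untreated and 532.2, 500.2 and 538.4 in pyruvate cells, again without overlap. The log2 change was -0.41 with a standard error of 0.05 (adjusted p = 0.0002). The other probe set, 1449244_at, read 394.2, 402.9 and 389.7 against 407.8, 435.2 and 443.9. Its pyruvate arrays were all slightly higher, and the change of 0.11 did not pass (95% interval -0.01 to 0.24, adjusted p = 0.16). Within arrays, the log2 ratio of the brighter to the dimmer probe set went from 0.80 ± 0.07 to 0.28 ± 0.09 (SD, n = 3), without overlap. That is a difference of -0.52, at the smallest p this design allows (exact permutation test, two-sided p = 0.1, adjusted 0.18). As the 2 probe sets had already separated in opposite directions, that p was fixed beforehand and adds no support. Only 1 of the 2 probe sets of Cdh2 was called, so the fall of Cdh2 rests on that probe set. Which transcripts each one reads was not analysed here. For the ratio of Cdh15 to Cdh2 on their brightest probe sets the difference between groups was 0.02 (exact permutation test, p = 0.9, adjusted 0.9), against SDs of 0.10 and 0.17.

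The probe sets of Ncam1, the neural cell adhesion molecule, moved in opposite directions. As background, the gene is made as several spliced forms in muscle. Which forms each probe set reads was not analysed here, and a link to these changes was not tested. Ncam1 had 7 of the 19 probe sets. Of the 6 past the filter, 3 were called higher, 2 were called lower and 1 did not pass. The brightest by its mean over all arrays, 1426864_a_at, read 407.8, 410.0 and 416.2 in untreated and 454.6, 471.7 and 465.8 in pyruvate cells. It was higher on every pyruvate array, by 0.17 with a standard error of 0.05 (adjusted p = 0.029). Its near equal in signal, 1426865_a_at, read 406.3, 443.1 and 439.6 against 352.2, 351.2 and 369.0. It was lower on every pyruvate array, with a log2 change of -0.25 (standard error 0.06, adjusted p = 0.0066). A gene-level direction for Ncam1 therefore depends on which of these is taken, and the mean over its probe sets changed by 0.03 (adjusted p = 0.74).

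The largest Ncam1 change was on 1439556_at, at 110.5, 101.7 and 107.2 in untreated and 65.1, 56.9 and 57.2 in pyruvate cells. Its log2 change was -0.69 (95% interval -0.92 to -0.47, adjusted p = 0.00041), and the groups did not overlap. In the other direction, 1450437_a_at went from 250 ± 4.11 to 290 ± 11 (0.20, adjusted p = 0.028) and 1425126_at from 61.9 ± 7.65 to 90.3 ± 14.9 (0.44, adjusted p = 0.022). The dimmer 1450438_at was at 35.5 ± 1.25 and 45.8 ± 6.50 (0.26, adjusted p = 0.17). The last probe set, 1421966_at, was below the filter, with signals of 1.3 to 10.6 on all 6 arrays.

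Within arrays, the log2 ratio of 1426864_a_at to 1426865_a_at went from -0.06 ± 0.06 to 0.36 ± 0.04, and that of 1426864_a_at to 1439556_at from 1.80 ± 0.06 to 2.67 ± 0.11 (SD, n = 3). Neither ratio overlapped between groups, with differences of 0.42 and 0.86. Each reached the smallest p possible (exact permutation test, two-sided p = 0.1, adjusted 0.18). As the probe sets of each pair had already separated in opposite directions, that outcome was fixed beforehand and adds no support. The ratio of 1426864_a_at to 1450437_a_at differed by -0.04 (exact permutation p = 0.5, adjusted 0.56), against SDs of 0.03 and 0.07. The ratio to 1425126_at also differed without overlap, by -0.28 (exact permutation p = 0.1, adjusted 0.18), and that to 1450438_at by -0.09 (exact permutation p = 0.4, adjusted 0.51). By their own calls, given above, some Ncam1 probe sets were higher and others lower. Both falls were kept without any 1 array, but the rises were not firm. The call of 1426864_a_at was lost without untreated replicate 1, 2 or 3 or pyruvate replicate 2 or 3, with changes of 0.16 to 0.18 and adjusted p of 0.059 to 0.097. The call of 1450437_a_at was lost without untreated replicate 1, 2 or 3 or pyruvate replicate 1 or 2, with changes of 0.18 to 0.22 and adjusted p of 0.055 to 0.083. The call of 1425126_at was lost without untreated replicate 1 or 3 or pyruvate replicate 3, with changes of 0.33 to 0.43 and adjusted p of 0.062 to 0.087.

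**Figure D2:**
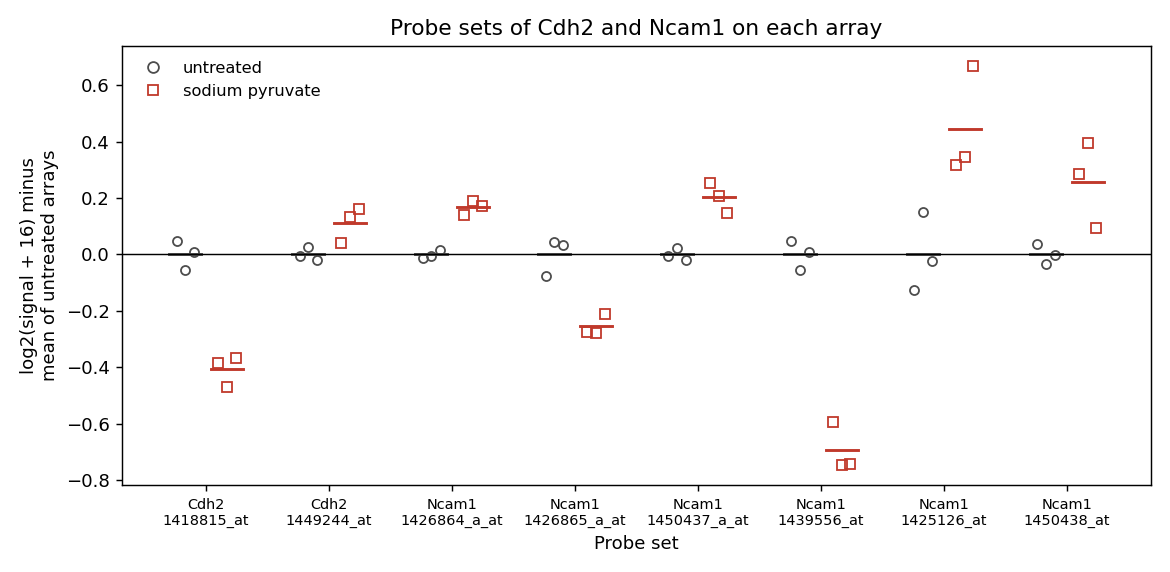
log2(signal + 16) of each tested Cdh2 and Ncam1 probe set on each array, less the mean of the 3 untreated arrays (grey circles), with pyruvate arrays as red squares and bars at group means. Pyruvate arrays lie below the untreated ones for 1418815_at, 1426865_a_at and 1439556_at and above them for the other 5 probe sets.

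Jam3, a junctional adhesion molecule of the immunoglobulin family, stayed within a narrow range. Probe set 1423503_at read 100.3, 101.5 and 98.6 in untreated and 113.7, 105.3 and 117.7 in pyruvate cells. The pyruvate arrays were all higher, but the change of 0.14 did not pass (95% interval -0.06 to 0.34, adjusted p = 0.26). Like Jam3, all 8 tested members had groups that did not overlap, 3 lower and 5 higher. Over all genes tested this held for 48.6%, 20.0% lower and 28.6% higher. The other Jam3 probe set, 1423504_at, was below the filter at 18.6 ± 5.50 and 13.6 ± 3.89.

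The tetraspanin genes were both higher. CD9 and CD81 sit in complexes with integrins and immunoglobulin-type partners, and both have been studied as regulators of myoblast fusion. Cd9 (1416066_at) read 2449.7, 2518.9 and 2488.2 in untreated and 3200.9, 3614.9 and 3393.6 in pyruvate cells. All 3 pyruvate arrays were well above the untreated ones. The log2 change was 0.45 with a standard error of 0.05 (adjusted p = 9.2e-05), a ratio of 1.37. Cd81 (1416330_at) read 2763.4, 2905.8 and 2616.4 against 3237.4, 3333.8 and 3465.0. The groups did not overlap, and the change was 0.28 with a standard error of 0.05 (adjusted p = 0.0023).

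Both tetraspanin probe sets are among the bright ones that were higher as a class, with a median of 0.23. After quantile normalization Cd9 was at 0.30 (adjusted p = 9.3e-05), a smaller but still called rise, and Cd81 at 0.12 (adjusted p = 0.071), no longer called. With cyclic loess normalization they were at 0.31 (adjusted p = 0.00016) and 0.13 (adjusted p = 0.043). The log2 ratio of Cd9 to Cd81 went from -0.15 ± 0.07 to 0.02 ± 0.08 (SD, n = 3), without overlap. This difference of 0.17 was at the smallest p this design allows (exact permutation test, p = 0.1, adjusted 0.18). The pair was chosen after its values were seen, so that p adds no support.

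By the same measure as for Mymk, the genes closest to Cd9 were Rpl19, Spry2, Tmsb4x, Tgfbr3 and Crip1, with root mean square differences of 0.018 to 0.024 and changes of 0.42 to 0.48. Rpl19, a ribosomal protein gene, has near-identical copies in the genome, so its signal may not come from 1 gene. Of the 5, Rpl19, Tmsb4x and Crip1 are bright, with untreated means of 5076, 4687 and 3913.

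Of the ferlins, only Myof, encoding myoferlin, was measured above the filter. Myoferlin is found in myoblasts and takes part in their fusion. Probe set 1427318_s_at, whose name marks probes shared between transcripts, read 1308.9, 1419.7 and 1576.7 in untreated and 1889.6, 1765.0 and 1796.4 in pyruvate cells. The pyruvate arrays were all higher, by 0.34 with a standard error of 0.07 (adjusted p = 0.0022), and after quantile normalization by 0.30 (adjusted p = 0.0038). A dim Myof probe set, 1452455_at, was at 12.0 ± 1.83 and 7.73 ± 3.76, below the filter. Averaging it in gave 0.05 (adjusted p = 0.64).

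Dysf, encoding dysferlin, the ferlin of membrane repair in mature fibres, read 21.1, 9.9 and 15.4 in untreated and 14.9, 7.3 and 2.2 in pyruvate cells on 1451891_a_at. The groups overlapped, and all values were below the filter. The fit without the filter gave -0.40 (95% interval -0.91 to 0.11, adjusted p = 0.33). Cav3, encoding the muscle caveolin, read 2.9, 1.8 and 5.6 against 2.7, 2.0 and 1.7 on 1418413_at, also overlapping and near the lowest signals of the arrays (-0.10, adjusted p = 0.62). In that fit 1.73% of probe sets below the filter were called. A change in either gene was not resolved at these signals.

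**Figure D3:**
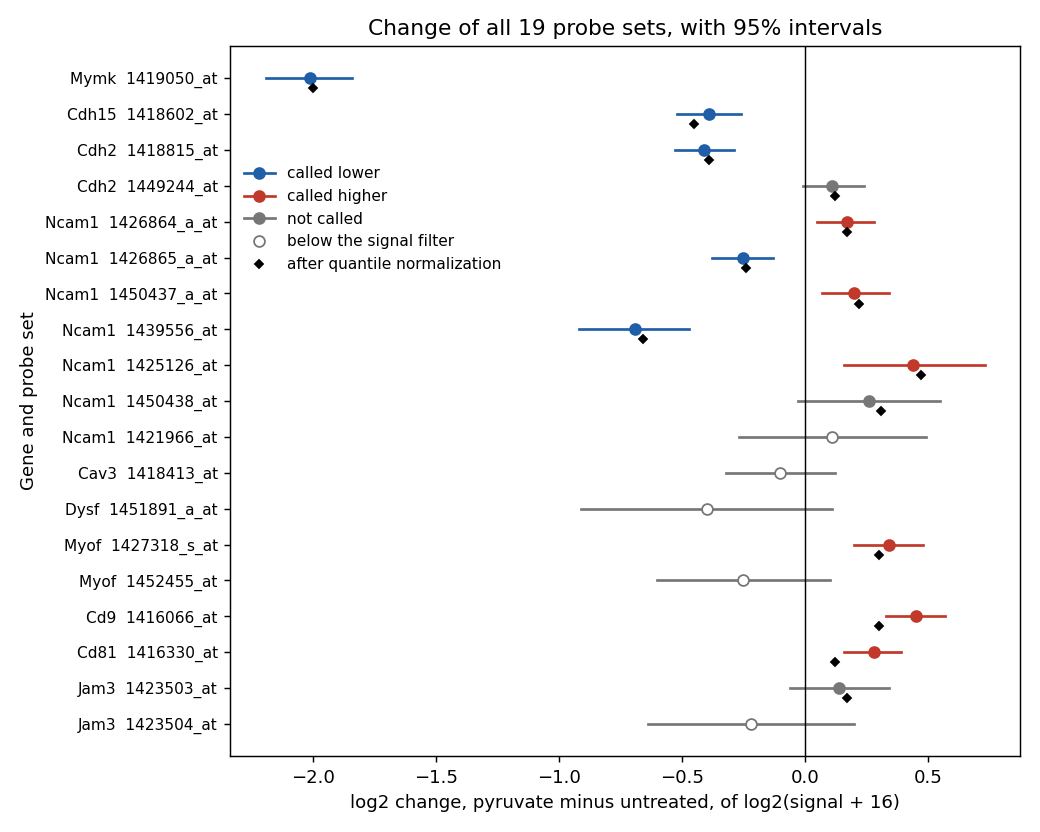
Log2 change (pyruvate minus untreated) with its 95% interval for all 19 probe sets, filled where the probe set passed the signal filter and open where it did not, with black diamonds for the value after quantile normalization. Mymk stands at -2.01, all other changes lie between -0.69 and 0.45, and the diamonds of Cd9 and Cd81 sit to the left of their circles.

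Other genes of these steps, from lists made for this comparison, changed in both directions, and each list is given by its counts and median beside the 35.1% of all genes called and the median of 0.03. Among the fusogen and cadherin partners, 1 of 7 tested genes was lower and 1 higher, with a median of 0.13. The one lower was Mymx. The one higher was Cdh13, which encodes T-cadherin, a cadherin anchored by lipid, going from 280 ± 19.2 to 491 ± 43.7 (0.78, adjusted p = 2.5e-05). The catenin genes, whose products tie cadherins to actin, did not pass on their brightest probe sets, with Ctnna1 at 0.14 (adjusted p = 0.059), Ctnnb1 at 0.13 (adjusted p = 0.058) and Ctnnd1 at 0.04 (adjusted p = 0.61). Dimmer probe sets of the former pair passed in opposite directions, with 1436631_at of Ctnna1 at -0.30 (adjusted p = 0.044) and 1430533_a_at of Ctnnb1 at 0.33 (adjusted p = 0.00056).

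Of 11 tested immunoglobulin-type and integrin receptors, 4 were lower and 3 higher. Their median was -0.12. Itga4, the integrin subunit that binds VCAM-1, fell from 86.8 ± 10.9 to 30.1 ± 3.16 (-1.16, adjusted p = 6e-05), with the pyruvate mean at the filter. Vcam1 itself fell from 757 ± 39.9 to 472 ± 32.7 on its brightest probe set (-0.67, adjusted p = 2.1e-05). Of its dimmer probe sets, 1415989_at fell by less (-0.20, adjusted p = 0.04) and 1451314_a_at did not pass (0.08, adjusted p = 0.71). F11r, a relative of Jam3 that encodes JAM-A, fell by 0.55 (adjusted p = 0.00037), whereas Jam2 was at -0.04 (adjusted p = 0.53). The other F11r probe set, 1436374_x_at, was below the filter at 25.4 ± 13.1 and 38.4 ± 13.5, with overlapping groups. The fit without the filter gave it 0.41 (adjusted p = 0.43). Cdon, a co-receptor that binds N-cadherin and promotes myogenesis, rose by 0.32 (adjusted p = 0.00073). A dim Cdon probe set, 1421452_at, did not pass (-0.03, adjusted p = 0.89).

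Among 7 tested relatives and partners of the tetraspanins, 3 were higher and 1 lower, around a list median of -0.05. Tspan4 rose by 0.55 (adjusted p = 4.4e-05) and Cd53, best known in leukocytes, by 0.50 (adjusted p = 0.00074), from 142 ± 5.09 to 209 ± 17.2. Cd151 rose by 0.17 and Cd82 fell by 0.17 (adjusted p = 0.017 each). None of the 4 other tested probe sets of Cd151 was called, nor was the other one of Cd82, 1449611_at (0.19, adjusted p = 0.33). With cyclic loess normalization Cd151 was at 0.08 (adjusted p = 0.19), no longer called, and Cd82 at -0.30 (adjusted p = 0.00049). With median centring Cd82 was at -0.14 (adjusted p = 0.055). The call of Cd82 was lost without untreated replicate 2 or 3 or pyruvate replicate 3, with changes of -0.17 to -0.15 (adjusted p 0.055 to 0.081). That of Cd151 was lost without untreated replicate 1 or 3 or pyruvate replicate 3, with changes of 0.15 to 0.18 (adjusted p 0.052 to 0.062). Without pyruvate replicate 3, 2 genes of this list were called. The immunoglobulin-type partners of Cd9 and Cd81 did not pass, with Ptgfrn at -0.05 (adjusted p = 0.56) and Igsf8 at -0.18 (adjusted p = 0.11).

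In caveolae, 2 of 8 tested genes were higher and 1 lower, around a list median of 0.06. Cav1 and Cav2, the caveolins of most cells, rose from 756 ± 27.1 to 1133 ± 61.8 (0.57, adjusted p = 2.2e-05) and by 0.34 (adjusted p = 0.0015). A dim Cav2 probe set, 1425955_at, did not pass (-0.20, adjusted p = 0.37). Cavin2, a coat protein of caveolae, fell from 1008 ± 60.4 to 636 ± 41.5 (-0.65, adjusted p = 2.2e-05), and its other 2 probe sets were called lower too. Cavin4, the muscle member of that family, was at 367 and 376 (0.03, adjusted p = 0.72) and was not called. Cav3, the muscle caveolin, was below the filter, so a change in it was not resolved.

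Among 8 tested genes of membrane repair beside the ferlins, 3 were higher and 1 lower. The list median was 0.18. S100a10, the annexin-binding partner of Ahnak, rose by 0.50 (adjusted p = 4.6e-05) and Ahnak by 0.34 (adjusted p = 0.0021). Both are bright on these probe sets, and after quantile normalization they were at 0.10 (adjusted p = 0.034) and 0.12 (adjusted p = 0.13). Their other tested probe sets were called higher too. After quantile normalization, 1439348_at of S100a10 was at 0.51 (adjusted p = 0.002) and the bright 1456642_x_at at -0.08 (adjusted p = 0.28). In the same setting 1428057_a_at of Ahnak was at 0.70 (adjusted p = 0.0022) and 1428058_at at 0.54 (adjusted p = 0.023). Smpd1, acid sphingomyelinase, rose by 0.39 (adjusted p = 0.00033), while its dimmer probe set, 1447874_x_at, did not pass (0.25, adjusted p = 0.27). Capn1, a calpain protease, fell by 0.27 (adjusted p = 0.036). That call was lost without untreated replicate 1, 2 or 3 or pyruvate replicate 2 or 3, with changes of -0.28 to -0.21 (adjusted p 0.076 to 0.12), and with median centring (-0.24, adjusted p = 0.087). The other Capn1 probe set, 1417228_at, did not pass (0.04, adjusted p = 0.75). Trim72, whose product MG53 patches damaged muscle membrane, was below the filter at 5.43 and 1.97.

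Of 19 tested genes that remodel actin at sites of fusion, 5 were higher and 2 lower, and the median change was 0.04. The small GTPase Rac1 rose by 0.40 (adjusted p = 0.00024), and by 0.19 after quantile normalization (adjusted p = 0.0025). That was on 1451086_s_at, whose name marks probes shared between transcripts. Another bright Rac1 probe set, 1423734_at, rose by 0.18 (adjusted p = 0.012). After quantile normalization 1423734_at was at 0.06 (adjusted p = 0.24), no longer called. Nckap1, a subunit of the complex through which Rac acts on actin, rose by 0.34 (adjusted p = 0.00034), and by 0.22 with cyclic loess normalization (adjusted p = 0.0029). Dock1, an activator of Rac in fusion, was at 287 and 281 (-0.03, adjusted p = 0.79). Pld1, a phospholipase, rose by 0.40 (adjusted p = 0.023), a call lost without untreated replicate 1 or pyruvate replicate 2 or 3, with changes of 0.29 to 0.39 (adjusted p 0.059 to 0.10). The other 2 probe sets of Pld1 did not pass, with 1437112_at at -0.26 (adjusted p = 0.13) and 1425739_at at 0.02 (adjusted p = 0.92). Wipf1, a partner of WASP proteins, fell by 0.30 (adjusted p = 0.019), a call lost without untreated replicate 1 or 3 or pyruvate replicate 2, with changes of -0.27 to -0.21 (adjusted p 0.069 to 0.077), and with median centring (-0.27, adjusted p = 0.052). The other Wipf1 probe set, 1436953_at, did not pass (-0.06, adjusted p = 0.55). Without untreated replicate 1, 4 genes of this list were called, and without pyruvate replicate 2, 2 genes were.

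**Figure D4:**
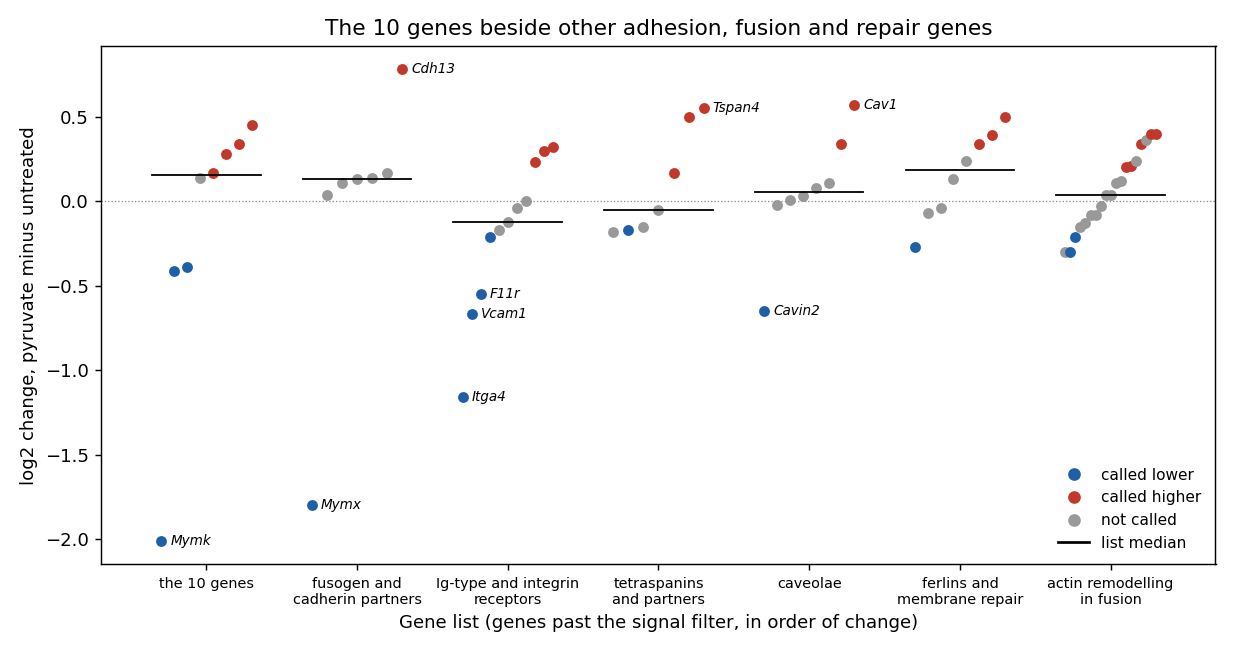
Log2 change (pyruvate minus untreated) of each gene past the signal filter, by list, with genes called lower in blue, called higher in red and not called in grey, and a black line at each list's median. Mymk and Mymx lie at -2.01 and -1.80, Itga4 at -1.16, and the list medians lie between -0.12 and 0.18.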

How the data were processed

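MAS5 made the deposited intensity values (submitters' processing notes), which are linear, 1 per probe set and array. The sources used here give no MAS5 settings. Trimmed by 2% at each end, every array had a mean of 150.0, so the authors had scaled the arrays alike, and that scaling was kept. Symbols came from the platform annotation. Of the 45101 probe sets, 64 controls were left out. Signals were taken as log2(signal + 16), and probe sets with a mean at or above the median (5.53, a signal of about 30.3) were tested with limma 3.58.1 in R 4.3.3 (lmFit, eBayes with a variance trend, no block, two-sided). Benjamini-Hochberg adjustment ran over all 22519 probe sets, with a threshold of 0.05. The fit was tested on simulated data. Probe sets below the filter were read from a fit without it.

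Members, lists and rules were chosen with earlier results of these data known. From each other list, up to 4 called genes with the largest change were named; the catenins, Jam2, Ptgfrn, Igsf8, Cavin4, Trim72 and Dock1 were added after their values were seen. Listed genes without a probe set of 1 symbol are not analysed here. Within-array ratios were compared by exact permutation. Likeness to Mymk and Cd9, the members with the largest fall and rise, was the root mean square difference of centred log2 values. Alternatives were pseudocounts of 1 and 64, other filters, quantile, median and loess normalization, other variance models, array weights, a replicate block, other probe set choices and each array left out. Figures were drawn with matplotlib 3.10.9.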

Additional observations from a re-analysis of the deposited data

How the results depend on the processing

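Mymk, Cdh15, Cdh2 (1418815_at), Cd9 and both Ncam1 probe sets that fell kept their direction and call under every alternative run on those probe sets, with Mymk between -2.15 and -1.69. The count of members called lower was 3 throughout, or 2 with the dimmest tested probe set of each gene. The count called higher ranged from 3 to 4 without each array in turn, and was 2 when the probe sets of a gene were averaged, where Jam3 turned to -0.04 (adjusted p = 0.81). The values showed no pairing by replicate number: deviations of same-numbered arrays correlated at -0.009 to 0.021. This cannot tell whether samples were paired when grown or handled. With the replicate number as a block, 3 members were lower and 3 higher, the call lost being Ncam1 1426864_a_at (0.17, adjusted p = 0.054), which was also lost without the variance trend (adjusted p = 0.068). Of the counts over other lists, cadherin partners went from 2 called to 4 with median centring or the dimmest probe set, and receptors from 7 to 4 with the mean over probe sets. Tetraspanins went from 4 to 2 without the variance trend, with the mean or with the dimmest probe set, and lay between 2 and 5 without each array in turn. Actin genes went from 7 to 3 without the filter or the variance trend and to 4 with the mean, and lay between 2 and 7 without each array in turn. Apart from the settings named, the causes were not tested. The alternatives for these lists were added after the data were seen. With 3 arrays a group, and Cav3 and Dysf near the floor of the arrays, small changes could not be resolved.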
